A study of Mus musculus with 4 samples.

Results

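The cyclin D kinase genes Cdk6 and Cdk4, the D-type cyclin genes Ccnd1, Ccnd2 and Ccnd3, and the retinoblastoma family genes Rb1 and Rbl1 were described by the ATAC-Seq peaks found in each gene body plus 10 kb on each side. Overlapping peaks of the 4 libraries were merged into regions, and 249 of the 337776 regions of the autosomes and X fell in the windows of these 7 genes. The set was chosen by measured values of the same peak lists, since Cdk6 was selected on its number of regions held by both control libraries and neither KO library, and that number is therefore given as a description with no test. Cells labelled ltHSC (long-term hematopoietic stem cells, HSCs), which the study's text calls HSPCs, had been sorted from the bone marrow of adult mice, with 2 control libraries (genotype WT in the labels, Cpt1a fl/fl in the study) and 2 KO libraries (Cpt1a-KO in the labels, Cpt1a fl/fl with Vav1-Cre in the study). Vav1-Cre acts across blood cells from an early stage, so the deletion was not limited to the stem cells, and the controls shared the floxed allele. Mice of either genotype had received no treatment that the labels name, and the cells were frozen after the sort. The labels do not say whether the 2 libraries of a genotype came from separate mice, and with 2 against 2 libraries an exact two-sided permutation test cannot give a p below 0.333. The peak lists hold no read counts for a count model, and no difference between genotypes was tested here.

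D-type cyclins bind Cdk4 and Cdk6 and direct them to phosphorylate the retinoblastoma proteins, which otherwise hold E2F transcription factors in check and keep a cell out of S phase. In HSCs, which rest in G0 for most of their life, the amount of Cdk6 is known to set how fast a resting cell enters division. ATAC-Seq marks DNA that the Tn5 transposase can reach, so a peak stands for open chromatin such as a promoter or an enhancer and not for transcription.

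The 4 lists held between 240940 and 277594 summits, and the intervals of the control libraries covered 52.9 and 48.9 Mb against 42.6 and 44.4 Mb in the KO libraries. Within the 80271 regions held by all 4 libraries, the control peaks covered 81.1% and 79.4% of the bases and the KO peaks 66.8% and 69.7%, so that peaks were narrower in the KO libraries genome-wide. Of 11 HSC marker genes, 9 had a promoter in the table used, and all 9 (Kit, Hlf and Meis1 among them) held a peak there in every library, with a median percentile of 76.5 to 81.6. Of the other markers with a promoter in that table, the T cell list held a peak at 1 to 2 of 4 genes, the B cell list at 2 of 2, the myeloid list at 4 to 5 of 5 (median percentiles of 59.8 to 67.4), the erythroid list at 0 to 2 of 3 and the non-blood list at 1 to 2 of 3, with no peak at Cd3e, Cd8a, Klf1 or Alb in any library and a peak at Neurod1 in all 4. The part of other cells in the results was not tested. The gene body of Cpt1a plus 10 kb on each side held 18 regions present in at least 2 libraries. Of these, 2 were in the controls alone and 0 in the KO libraries alone, beside 6.05% and 3.47% of all such regions of the genome. Nothing is read from counts this small. Peak lists cannot show the deletion itself.

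The promoters of 4 of these genes were in the RefSeq table (build GRCm38.p6, the assembly of mm10) and show what kind of sequence lies at the open start sites. Each run below covers 250 bases before the start to 50 after it on the strand of the gene, and capitals mark matches on either strand to the motifs named after the sequences.
Cdk6, chr5:3343643-3343942, plus strand: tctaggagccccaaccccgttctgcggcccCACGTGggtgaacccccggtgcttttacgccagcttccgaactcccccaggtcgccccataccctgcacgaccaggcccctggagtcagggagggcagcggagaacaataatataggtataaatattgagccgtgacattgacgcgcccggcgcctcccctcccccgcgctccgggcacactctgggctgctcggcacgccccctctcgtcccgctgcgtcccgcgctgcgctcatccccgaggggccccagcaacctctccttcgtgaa
Cdk4, chr10:127063285-127063584, plus strand: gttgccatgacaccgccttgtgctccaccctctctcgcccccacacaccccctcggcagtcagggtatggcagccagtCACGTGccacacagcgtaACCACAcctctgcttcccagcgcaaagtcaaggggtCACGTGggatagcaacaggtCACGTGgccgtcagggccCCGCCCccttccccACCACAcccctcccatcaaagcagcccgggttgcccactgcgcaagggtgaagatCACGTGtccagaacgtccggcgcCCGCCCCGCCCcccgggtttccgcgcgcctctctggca
Ccnd3 internal start, chr17:47593217-47593516, plus strand: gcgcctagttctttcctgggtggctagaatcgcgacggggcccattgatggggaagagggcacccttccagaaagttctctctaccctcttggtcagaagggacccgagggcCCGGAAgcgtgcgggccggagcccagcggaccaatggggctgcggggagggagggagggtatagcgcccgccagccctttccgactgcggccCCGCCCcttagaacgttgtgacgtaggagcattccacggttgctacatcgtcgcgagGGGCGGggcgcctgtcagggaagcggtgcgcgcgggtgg
Rbl1, chr2:157204485-157204784, minus strand: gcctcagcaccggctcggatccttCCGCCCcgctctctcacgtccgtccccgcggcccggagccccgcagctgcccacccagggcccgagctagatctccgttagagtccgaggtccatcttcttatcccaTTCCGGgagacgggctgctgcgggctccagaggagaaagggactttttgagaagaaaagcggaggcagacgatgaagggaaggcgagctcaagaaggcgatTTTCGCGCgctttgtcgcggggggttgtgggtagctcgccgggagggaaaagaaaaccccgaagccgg
The Cdk6 window held only the E-box CACGTG, once, among the 10 motifs searched. The other motifs were the E2F forms TTTCGCGC, TTTGGCGC and TTTCCCGC, the cyclic AMP response element TGACGTCA, the Sp/KLF box GGGCGG, the ETS core CCGGAA, the PU.1 site GAGGAAGT, the RUNX site TGTGGT and the GATA site AGATAA. The E-box was added to the search after these sequences had been read, and 7.15% of the 32851 promoters of the table hold it. Cdk4 held 4 E-boxes, 3 Sp/KLF boxes, the last pair of which overlap, and 2 RUNX sites (35.7% and 16.8% of all promoters hold the Sp/KLF and RUNX letters). Rbl1 held 1 match to TTTCGCGC, which 0.323% of all promoters hold, beside 1 Sp/KLF box and 1 ETS core. The internal Ccnd3 promoter held 2 Sp/KLF boxes and 1 ETS core, which 14.9% of promoters hold. The GC content of these windows was 66.7% for Cdk6, 67.0% for Cdk4, 67.0% for Ccnd3 and 64.0% for Rbl1, above the median of 52.7% over all promoters. The letters of the motifs without a match in these windows are held by 0.514% (TTTGGCGC), 1.07% (TTTCCCGC), 1.79% (TGACGTCA), 3.20% (GAGGAAGT) and 11.2% (AGATAA) of all promoters. A match is a run of letters and not a shown binding site.

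Across the 7 genes, 119 regions had a peak in at least 2 libraries and 130 in 1 library alone. Control libraries held 139 and 141 regions and KO libraries 119 and 115. Of the 119 regions, 63 were in all 4 libraries, which is 52.9% against 58.4% of all such regions of the genome. Regions only in control numbered 15, or 12.6% against 6.05% of the genome, and regions only in KO numbered 1, or 0.840% against 3.47%. The first of these counts was part of the reason why the genes were chosen, and nothing is read from its distance to the genome. These 15 regions were weak, with a fold over background of 1.89 to 4.69 and a median percentile of 40.6, where the percentile ranks the regions of a library by their peak's −log10 p and 100 is the strongest. Regions held by all 4 libraries had a median percentile of 78.6. When 100000 summits of highest −log10 p were kept in each library, a single region of the 7 genes was found in control alone and a single one in KO alone (2.17% each), against 2.75% and 3.11% of the genome.

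**Figure D1:**
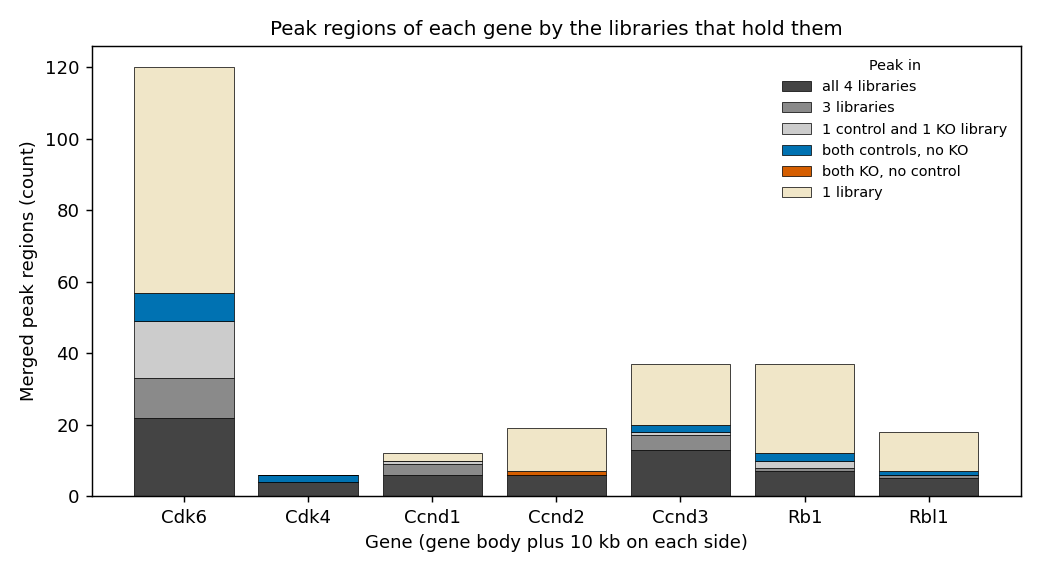
Number of merged peak regions (count, y axis) in the window of each gene (x axis), stacked by which libraries hold a peak there. Cdk6 had 120 regions, of which 63 were in 1 library, and it held 8 of the 15 regions that were only in control.

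Among the 63 shared regions, both KO percentiles were above both control percentiles in 7 (11.1%, genome 19.2%) and both control percentiles were above both KO percentiles in 11 (17.5%, genome 17.6%), while the libraries overlapped in the other 45. The median difference between the mean KO and the mean control percentile was 0.273 points over these regions and 0.0631 points over all 80271 shared regions. Ranks of the shared regions of these genes thus lay near the same line in both genotypes, with a few regions off it. In bulk samples, fewer cells with an open site and less opening per cell cannot be told apart.

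**Figure D2:**
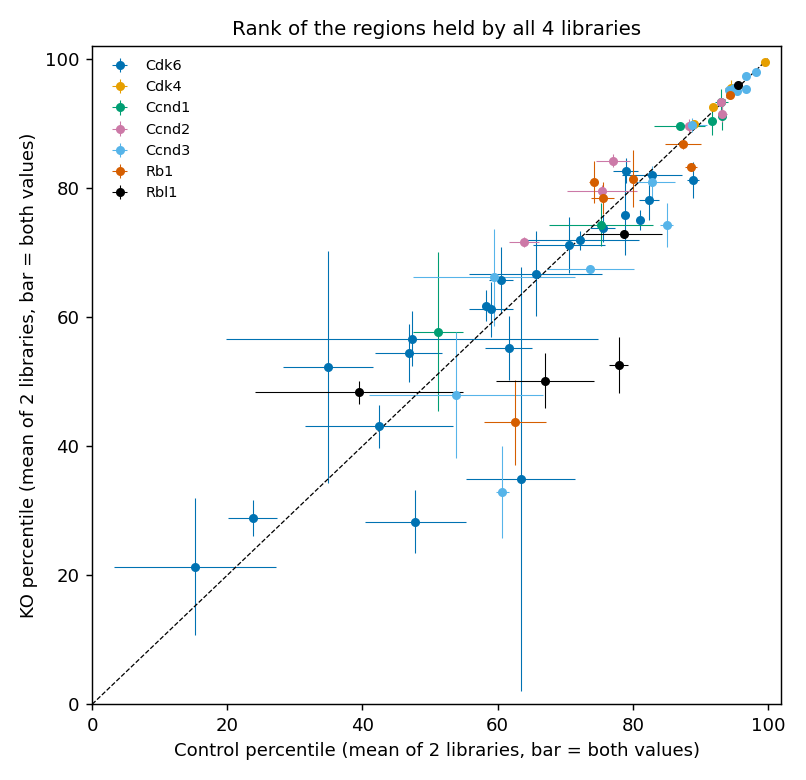
Each point is one of the 63 regions held by all 4 libraries, with its mean control percentile (x axis) and mean KO percentile (y axis), and each bar spans the values of the 2 libraries. Strong regions lay close to the dashed line of equal rank, and the points farthest below it were weaker regions of Cdk6, Ccnd3, Rb1 and Rbl1. The scale ends at 100, which by itself limits gaps between strong values.

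Cdk6 (gene ID 12571, chr5:3341004-3531008) is known for its high expression in blood progenitors. Its window held 120 regions, of which 57 were in at least 2 libraries, a density of 27.1 per 100 kb, below the 33.4 of Ccnd1, near the 25.3 of Cdk4 and above the other 4 genes, which ranged from 7.84 (Rb1) to 17.4 (Ccnd3). Control 1 held 63 regions, control 2 held 67, KO 1 held 52 and KO 2 held 50. Both controls were therefore above both KO libraries, which follows in part from the choice of Cdk6 by its regions only in control. Over the autosomes and X, control 1, control 2, KO 1 and KO 2 held 172740, 152879, 168591 and 163574 regions. The bases covered in Cdk6, which include those regions, were 16722 and 17953 in control and 11347 and 11594 in KO. Peaks covered fewer bases in the KO libraries genome-wide too. In the 22 regions shared by all 4 libraries the peaks covered 81.6% and 76.0% of the bases in control and 64.6% and 63.1% in KO, beside the genome-wide values given above.

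The region over the Cdk6 start site (chr5:3343582-3344628) was the strongest of the gene by its lowest percentile. It had percentiles of 89.9 and 88.0 in the control libraries and 84.0 and 78.5 in the KO libraries. The fold over background was 7.64 and 7.75 in control and 5.78 and 4.60 in KO, and the −log10 q was 36.3 and 37.3 against 19.6 and 9.25. Both controls were above both KO libraries on each of these scales. The percentile difference kept its sign under all 12 alternative settings that gave a value, but nothing is read from that count. With values that do not overlap, leaving out a library could hardly turn the sign. Asking for a covered share of 0.5, or for no peak of any score as absence, left the difference at −7.70 points. It was −6.90 with lists of equal length and −9.15 when regions were ranked by fold. The neighboring region at −1.11 kb from the start site, which lies in the gene's annotated span and overlaps Gm36470, had percentiles of 87.3, 78.5, 83.0 and 80.9 in control 1, control 2, KO 1 and KO 2, and its groups overlapped. At the outer one, at −2.43 kb, the percentiles were 77.1 and 80.8 in control and 80.8 and 84.6 in KO, which also overlap when unrounded. The lower rank in KO was thus seen at the start site and not at the adjoining pair of regions.

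**Figure D3:**
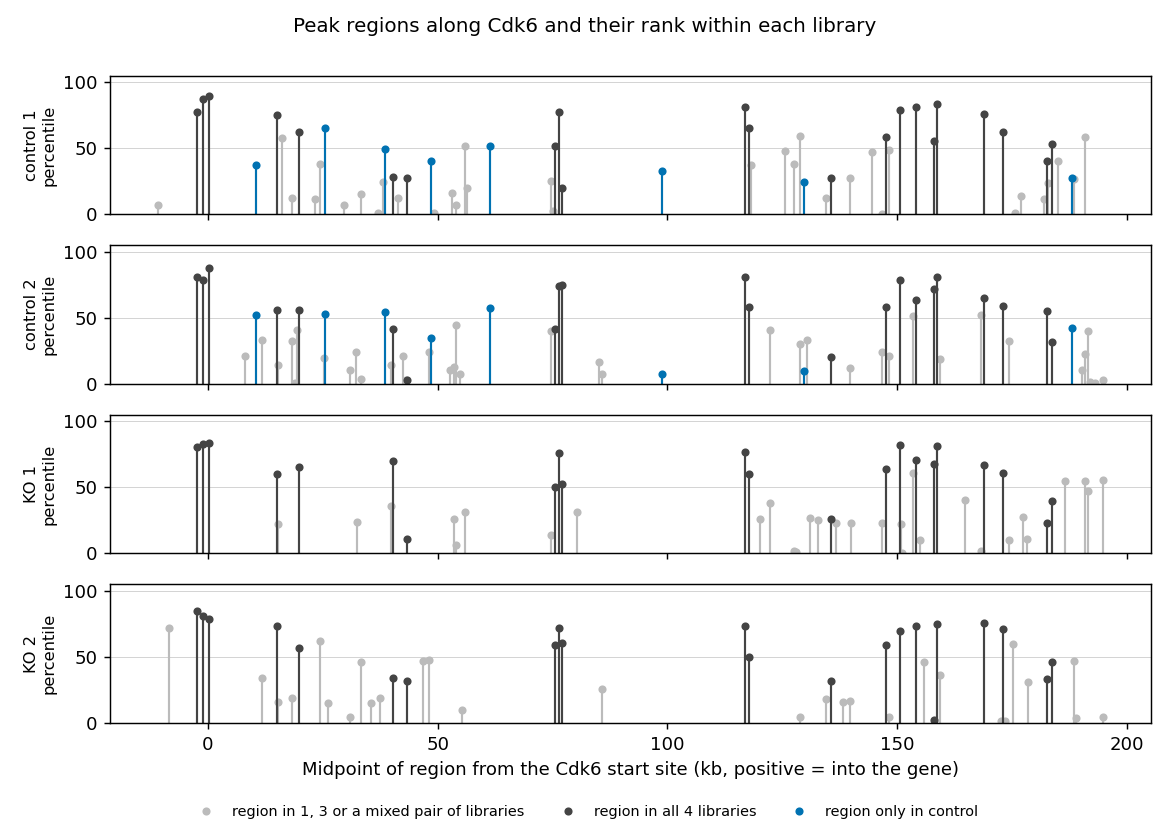
Percentile of each Cdk6 region (y axis, 100 = strongest) against the distance of its midpoint from the start site (x axis, kb), with a panel for each library. Most shared regions (dark) lie near the start, near 76 kb, near 117 kb and between 147 and 184 kb. Others lie at 15.1, 19.8, 40.25, 43.4 and 135.5 kb. The 8 regions only in control (blue) lie between 10.6 and 188 kb, at percentiles of 7.20 to 65.7.

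Shared Cdk6 regions were spread through the gene body and ranked lower than those of the other genes, except those of Rbl1 in the KO libraries. Their median percentile was 63.7 and 61.1 in control and 66.1 and 65.2 in KO, compared with 93.8, 92.7, 93.3 and 94.7 for Cdk4 in control 1, control 2, KO 1 and KO 2. A group at 76.5 kb (chr5:3420028-3420748) reached percentiles of 77.3 and 73.7 in control and 75.8 and 71.7 in KO. The region at 117 kb (chr5:3460360-3461333) had percentiles of 81.4 and 80.7 in control and 76.5 and 73.5 in KO, with folds of 7.49 and 8.06 against 6.21 and 5.24. It was the other strong region at which both controls lay above both KO libraries. The weak region at 183 kb (chr5:3526323-3526492) did the same, at 40.3 and 55.3 against 23.4 and 33.2. In contrast, at 148 kb (chr5:3491277-3491633) the KO percentiles of 64.2 and 59.4 lay above the control values of 58.1 and 58.3. Of the 22 shared regions, 3 were thus higher in both controls and 1 in both KO libraries, beside 17.6% and 19.2% of the genome. The other 18 overlapped between genotypes, and the median difference of all 22 was 0.589 points. That median had no stable direction, since it was −4.64 without control 2, −1.99 without KO 1 and 3.29 without control 1, and −4.85 with 100000 summits per library.

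Regions only in control numbered 8 of the 57 Cdk6 regions (14.0%, genome 6.05%), and regions only in KO numbered 0 (genome 3.47%), while 16 were held by 1 library of each genotype. The strongest was at 25.6 kb (chr5:3369442-3369543), with percentiles of 65.7 and 53.0 and folds of 4.69 and 4.00 in control 1 and control 2. Next were the regions at 61.5 kb (chr5:3405347-3405436), at percentiles of 51.8 and 57.2, and at 38.7 kb (chr5:3382393-3382727), at 49.6 and 54.7. These 3 sat near or above the middle of their libraries' ranks. Those at 10.6 kb (chr5:3354383-3354557) and 48.6 kb (chr5:3392364-3392580) had percentiles of 37.5 and 51.8 and of 40.0 and 35.0. The region at 188 kb (chr5:3531841-3531942), just past the gene's end, had percentiles of 27.6 and 42.2. The weakest were at 98.9 kb (chr5:3442718-3442832), with 32.5 and 7.20, and at 130 kb (chr5:3473432-3473934), with 24.4 and 9.98. None of the 8 overlapped another annotated gene except that at 61.5 kb, which lies over Gm29868. With 100000 summits per library, 11 Cdk6 regions were in at least 2 libraries and 0 were only in control (genome 2.75%). When summits with a −log10 q under 5 were dropped, 1 of 14 was only in control (genome 7.02%).

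The longest stretches of Cdk6 without a region in at least 2 libraries measured 17.5, 13.1 and 12.9 kb, and they lay between 61.5 and 117 kb from the start. Just outside the window, 12358 bp past the gene's end (chr5:3543366-3544334), a region had percentiles of 97.8, 96.7, 97.7 and 98.0 in control 1, control 2, KO 1 and KO 2, stronger than any region inside. The outermost region inside the window, 7593 bp past the gene's end, had percentiles of 3.11, 55.4 and 4.70 in control 2, KO 1 and KO 2 and no peak in control 1.

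Among 903 protein-coding genes with at least 20 regions in at least 2 libraries, Cdk6 was compared by the percentage of these regions that each library held, which was 77.2 and 91.2 in control and 63.2 and 64.9 in KO, against 86.4, 85.1, 82.9 and 78.3 over all such regions of the genome. A share of regions only in control at least as high as that of Cdk6 was found in 74 of the 903 genes, Cdk6 included. Cdk6 was chosen by its count of such regions, so nothing is read from this rank. By Euclidean distance over these 4 values the most similar genes were Ccdc60 (7.76), Pcnx2 (7.84), Dyrk1a (8.21), Prdm16 (8.84) and Inpp5d (9.19). Their shares of regions only in control were 19.2%, 19.2%, 11.5%, 14.9% and 14.3% in that order, values that follow in part from the presence values used to match them. Prdm16 encodes a transcription factor needed by HSCs, and Inpp5d encodes the lipid phosphatase SHIP1.

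Cdk4 (gene ID 12567, chr10:127063535-127067288), the second partner kinase of the D-type cyclins, is a short gene and had 6 regions. The region over its start site (chr10:127063151-127064088) was among the strongest of every library, with percentiles of 99.5 and 99.8 in control and 99.1 and 99.97 in KO and folds of 17.0, 18.4, 16.4 and 20.9. The groups overlapped. The 3 other shared regions lay over neighboring genes. That over Tspan31 and A730063M14Rik had percentiles of 95.5, 93.7, 94.3 and 96.7 in control 1, control 2, KO 1 and KO 2. At those over Marchf9 (88.8 and 89.2 against 90.4 and 89.6) and over Agap2 (92.2 and 91.6 against 92.4 and 92.7) the KO libraries were above the controls by less than a point in the mean. When summits with a −log10 q under 5 were left out, the differences were −3.34 and −2.64 points. The median over all shared regions was then −3.93 points. Of the 4 shared regions, 2 were thus higher in both KO libraries and 0 in both controls, beside 19.2% and 17.6% of the genome. The 2 regions only in control were weak and lay upstream, at −3.17 kb (chr10:127060300-127060436, percentiles of 48.8 and 41.1) and −7.97 kb (chr10:127055493-127055634, percentiles of 26.7 and 59.1). They were 2 of 6 regions (33.3%, genome 6.05%), and nothing is read from counts this small.

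Of the cyclins, Ccnd1 (gene ID 12443, chr7:144929931-144939831), which is induced by growth factor signals in many tissues, had 12 regions, 10 in at least 2 libraries and 6 in all 4. None was only in control or only in KO (genome 6.05% and 3.47%). The region over its start site (chr7:144939559-144939972) had percentiles of 91.4 and 92.2 in control and 92.6 and 88.2 in KO, and its strongest region lay 2.09 kb into the gene (chr7:144937542-144937949), at 94.1, 92.1, 91.4 and 95.3 in control 1, control 2, KO 1 and KO 2. At both the genotypes overlapped. One upstream region at −1.72 kb (chr7:144941320-144941783) was higher in both controls, at 93.3 and 93.3 against 93.1 and 89.0, a gap carried by KO 2. It was 1 of 6 shared regions, and 0 were higher in both KO libraries, beside 17.6% and 19.2% of the genome.

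Ccnd2 (gene ID 12444, chr6:127125162-127152188) encodes a D-type cyclin well known in blood cells and had 19 regions, of which 12 were in 1 library alone and 6 in all 4. Its start-site region (chr6:127151559-127152751) was also the strongest by its lowest percentile and held 92.6, 93.7, 93.3 and 93.4 in control 1, control 2, KO 1 and KO 2, which overlap. Ccnd2 held the only region of the 7 genes that was only in KO, 16.3 kb into the gene (chr6:127135831-127135961), with percentiles of 31.5 and 41.3 and folds of 2.93 and 3.26. It was 1 of the 7 Ccnd2 regions in at least 2 libraries (14.3%, genome 3.47%). At 2 of the 6 shared regions both KO libraries lay above both controls, and at 0 the reverse held, beside 19.2% and 17.6% of the genome. These were 4.31 kb into the gene (chr6:127147747-127148003), at 79.6 and 74.6 in control and 83.2 and 85.3 in KO, and 29.6 kb from the start and past the gene's end (chr6:127122505-127122749), at 66.2 and 61.7 against 72.5 and 70.9. Regions outside the window were strong on both sides, at 97.3 to 98.1 and at 89.6 to 92.6 over the 4 libraries.

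Ccnd3 (gene ID 12445, chr17:47505051-47599689), a cyclin needed in maturing lymphoid and erythroid cells, had 37 regions, of which 13 were in all 4 libraries and 2 only in control. The region over the start of its annotated span (chr17:47504962-47505111) was weak, with percentiles of 64.9 in control 1 and 36.2 in KO 1 and 36.2 in KO 2 and no peak in control 2. By contrast, the internal start site, whose promoter is printed above, lay in a region (chr17:47593275-47593995) with percentiles of 94.6 and 94.0 in control and 94.6 and 95.9 in KO and folds of 8.41, 8.49, 8.48 and 9.68. A strong peak thus stood at the internal promoter in every library, 88.6 kb from the outer start. The strongest region of the window (chr17:47501758-47502792), at 98.2, 98.4, 98.3 and 97.7, lies over the neighboring gene Taf8, which encodes a subunit of TFIID.

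**Figure D4:**
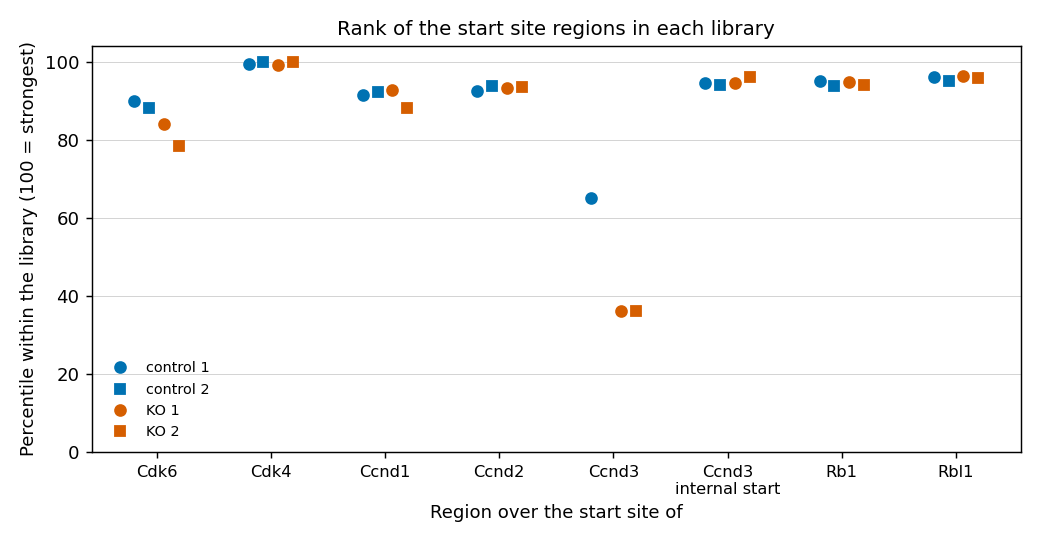
Percentile (y axis, 100 = strongest) of the region over the start site of each gene (x axis) in each library, with control libraries in blue and KO libraries in orange. Of the start-site regions held by all 4 libraries, the Cdk6 region is the lowest and the 1 at which both controls lay above both KO libraries, and the outer Ccnd3 start had no peak in control 2.

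Within Ccnd3, 3 of the 13 shared regions were higher in both controls and 1 in both KO libraries, beside 17.6% and 19.2% of the genome. At 18.4 kb (chr17:47523216-47523730) the percentiles were 84.0 and 86.0 in control and 77.6 and 70.8 in KO, and at 51.9 kb (chr17:47556489-47557456) they were 59.7 and 61.7 against 40.1 and 25.8. At 16.7 kb (chr17:47521337-47522226) they were 96.6 and 97.0 against 95.0 and 95.8. The gaps were widest at the weakest of these regions. One region 6.31 kb into the gene (chr17:47511112-47511606) was higher in KO, at 97.3 and 97.3 against 96.7 and 96.8. When summits with a −log10 q under 5 were dropped, its difference was −0.129 points, where the median over all shared regions was −3.93. The regions only in control were at 6.80 kb (chr17:47511794-47511900, percentiles of 39.7 and 21.8) and 42.2 kb (chr17:47547118-47547401, percentiles of 39.6 and 51.3). They were 2 of the 20 regions in at least 2 libraries (10.0%, genome 6.05%).

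**Figure D5:**
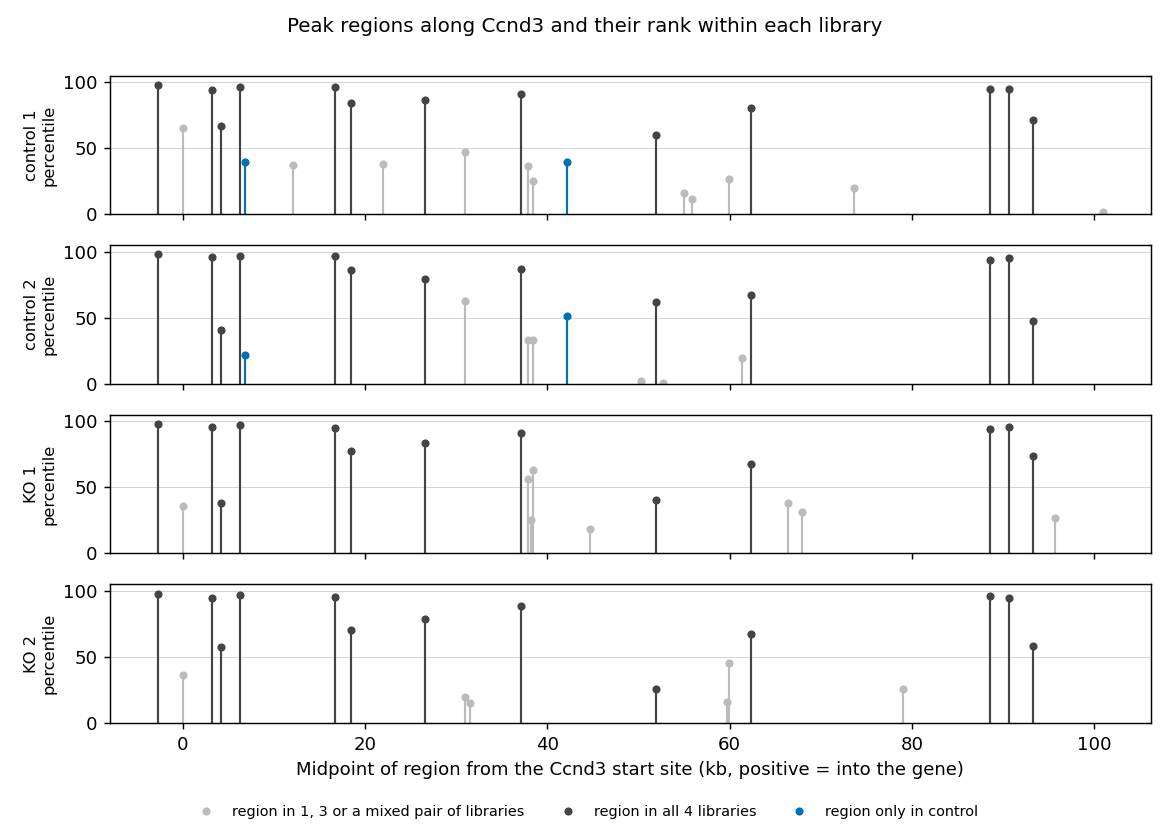
Percentile of each Ccnd3 region (y axis, 100 = strongest) against the distance of its midpoint from the start of the annotated gene (x axis, kb), with a panel for each library. The 13 shared regions (dark) stand in all 4 panels, the strongest of them from −2.78 to 37.1 kb and at 88.6 and 90.7 kb, and the 2 regions only in control (blue) are weak.

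Rb1 (gene ID 19645, chr14:73192858-73325951), the retinoblastoma protein that the kinases phosphorylate, had 37 regions, of which 25 were in 1 library alone and 7 in all 4. The region over its start site (chr14:73324614-73326421) had percentiles of 95.0 and 93.7 in control and 94.7 and 94.0 in KO with folds of 12.5, 12.4, 12.3 and 11.2, and its libraries overlapped. Several regions of the gene body lie over Lpar6, a receptor gene nested in Rb1. One of them (chr14:73238990-73239133) was higher in both controls, at 58.0 and 67.1 against 37.1 and 50.2. A strong region 103 kb into Rb1 (chr14:73222309-73223092) was higher in both controls too, at 89.6 and 87.8 against 83.5 and 83.0, with folds of 12.9 and 12.3 against 9.12 and 8.14. The region at 22.5 kb (chr14:73303267-73303636) went the other way, at 73.5 and 74.9 in control and 84.2 and 77.7 in KO. Of the 7 shared regions, 2 were thus higher in both controls and 1 in both KO libraries, beside 17.6% and 19.2% of the genome. The 2 regions only in control were at 81.6 kb (chr14:73244100-73244596, percentiles of 43.9 and 37.3) and 35.9 kb (chr14:73289965-73290235, percentiles of 60.7 and 57.2). They were 2 of the 12 regions in at least 2 libraries (16.7%, genome 6.05%).

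Rbl1 (gene ID 19650, chr2:157145893-157204534), a retinoblastoma relative that is itself a known E2F target, had 18 regions, of which 7 were in at least 2 libraries and 5 in all 4. Its start-site region (chr2:157203965-157205069), which holds the E2F letters printed above, had percentiles of 96.1 and 95.1 in control and 96.2 and 95.8 in KO and folds of 15.0, 13.3, 14.5 and 13.7. These values overlapped. A region 3.19 kb into the gene (chr2:157200878-157201815) was higher in both controls, at 59.7 and 74.2 against 54.5 and 45.9. So was a region past the gene's end, 65.5 kb from the start (chr2:157138963-157139177), at 76.5 and 79.3 against 48.2 and 56.8, and beside it lay the region only in control (chr2:157138407-157138617), with percentiles of 27.9 and 33.5. Of the 5 shared regions, 2 were thus higher in both controls and 0 in both KO libraries, beside 17.6% and 19.2% of the genome. The region only in control was 1 of 7 in at least 2 libraries (14.3%, genome 6.05%). The median difference of the 5 shared regions was −5.74 points. It ranged from −11.4 without control 1 to −0.0868 without control 2, and was 0.415 with a flank of 5 kb.

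The regions nearest the edge of the 10 kb flank set which regions were counted. The outermost region inside lay 2233 to 9871 bp from its gene and the nearest outside lay 10098 to 22872 bp away. Beyond Cdk6 and Ccnd2, strong regions stood outside the higher end of Ccnd3 (97.6 to 99.5 over the 4 libraries) and the lower end of Rbl1 (92.7 to 95.7).

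The other genes of this pathway were taken from a list of 27, which held the cyclin E and A partners of Cdk2, the E2F and Tfdp factors, Rbl2, the inhibitors of the Cdkn families and the Cdk7 complex. All 27 had a region, and of their 167 regions in at least 2 libraries 112 (67.1%) were in all 4. Regions only in control numbered 8 (4.79%) and lay in 6 genes, with 3 of them in Tfdp2, an E2F partner. Regions only in KO numbered 5 (2.99%) in 4 genes, with 2 of them in Rbl2. Both shares lay below those of the genome. Among the 112 shared regions both KO percentiles were above both controls in 26 (23.2%, genome 19.2%) and the reverse held in 6 (5.36%, genome 17.6%), and the median difference was 0.395 points. The inhibitor genes Cdkn1a, Cdkn1b and Cdkn1c, which hold cells at rest, had 5, 7 and 8 regions in at least 2 libraries. Of these, 1 was only in control, in Cdkn1b, and 0 only in KO, beside 6.05% and 3.47% of the genome. Another inhibitor gene, Cdkn2d, had 1 region only in control and 1 only in KO among its 5. Nothing is read from counts this small.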

How the data were processed

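ATAC-Seq was done on sorted HSCs with 2 control and 2 KO libraries. The authors called peaks in each library separately and deposited a list with a row per summit, and Bowtie2, MACS2 and mm10 are named in the submitters' processing notes, with no versions. For each summit the authors deposited a fold (a ratio of signal over local background), a −log10 p and a −log10 q. No read counts are in these lists, so depth and the precision it gives are unknown, and no interval is given. The lowest deposited −log10 p was 2.00, so a missing peak means a signal under that limit and not closed chromatin. A chromosome position in place of an offset stood in 253 to 492 rows of each list and was used as given.

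Intervals on the autosomes and X that overlapped by at least 1 bp were merged (Python 3.11.15 with pandas 2.3.3 and numpy 2.4.6; figures with matplotlib 3.10.9). In each library the regions with a peak were ranked by their highest −log10 p and given a percentile. Only in control means a peak in both control and neither KO libraries, and the reverse for KO. Gene spans came from the RefSeq table of GRCm38.p6, which gives no strand, exons or introns. Strand came from the promoter table for Cdk6, Cdk4, Ccnd3 and Rbl1 and from general knowledge for Ccnd1, Ccnd2 and Rb1. Distances are from the start site to the region's midpoint. The counting was tested on simulated data.

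The genes and gene lists were chosen with earlier results of these data known. The regions named are those over the start sites, the strongest of each gene, those only in control or only in KO and those at the flank's edge. The other regions with coordinates, most of them regions where the 2 genotypes did not overlap, were chosen after their values were seen. The study tested read counts, which the lists cannot repeat, so no test between genotypes was made here. Alternatives were a threshold on −log10 q, lists of equal length, the 100000 strongest summits, a covered share of 0.5, summit windows of 200 bp, flanks of 0, 5 and 50 kb, other rankings and each library left out.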

Additional observations from a re-analysis of the deposited data

How the results depend on the processing

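Most counts moved with the peak threshold. With summits of −log10 q of at least 5 alone, regions of the 7 genes only in control fell to 3 (Cdk6: 1), those only in KO to 0 and those in all 4 libraries to 40, and the median difference was −3.75 points, where that of all shared regions was −3.93. Over the genome 7.02% were then only in control and 0.807% only in KO. Where presence needed a −log10 q of at least 5 and absence the lack of any peak, the counts were 0 (Cdk6: 0), 0 and 40. Under that rule 0.139% of the genome was only in control and 0.0141% only in KO. Nothing is read from a count of 0 among 50 regions at such shares. With 100000 summits the counts were 1 (Cdk6: 0), 1 and 41. Lists of equal length gave 13 regions only in control (11.8%, genome 4.75%) and 2 only in KO (1.82%, genome 3.90%). The first share follows in part from how the genes were chosen. For Cdk6 alone, regions only in KO numbered 1 with these lists and 1 with summit windows. A covered share of 0.5 left 39 regions in all 4 libraries, and a flank of 50 kb gave 116 of them and 3 only in KO (1.43%, genome 3.47%). The cause of these shifts was not tested, apart from fewer summits or longer windows by construction. With one library left out, so that a genotype rested on a single library, regions only in control ranged from 23 (without KO 1 or without KO 2) to 54 (without control 2; 48 without control 1; Cdk6: 12 to 29), those only in KO from 2 (without control 1) to 36 (without KO 2; 4 without control 2 and 29 without KO 1), with 0 to 17 for Cdk6, those in all libraries kept from 66 to 71 and the median difference from −1.09 to 0.887 points. Leaving out a library moved the genome too, since 50.8% and 48.9% of all regions were then only in KO without KO 1 and KO 2, against 26.6% and 34.0% of those of the 7 genes. Without control 1 and control 2, 7.45% and 7.16% of the genome were only in KO, against 1.96% and 4.30% of the 7 genes. Regions only in control were 38.4%, 52.7%, 14.5% and 11.4% of the genome without control 1, control 2, KO 1 and KO 2. In the 7 genes they were 47.1%, 58.1%, 21.1% and 21.7%. The median difference also changed sign with 100000 summits (−0.266), a covered share of 0.5 (−0.0037), no flank (−0.0037) and summits ranked (−0.218). The 18 regions whose genotypes did not overlap were taken for that order, so leaving out a library could hardly turn their sign. The covered share and the rule on absence also kept their percentiles unchanged where they gave a value. Of these 18 regions, 15 kept their sign in every alternative that gave a value, and nothing is read from that count. The other 3 turned with a −log10 q of at least 5, namely those of Cdk4 over Marchf9 (−3.34 points) and Agap2 (−2.64) and that of Ccnd3 at 6.31 kb (−0.129). All 3 values lay above −3.93, the median over all shared regions at that setting. The Cdk6 median at that setting was −19.1 points, over the 8 Cdk6 regions then in all 4 libraries. No paired analysis was possible because no result comes from a test, and the labels number the libraries 1 and 2 in each genotype without saying that a number pairs them.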
